A study of Mus musculus with 16 samples.

Results

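The genes described here encode the IL-22 and IL-20 subfamily of cytokines and the receptor chains through which they act: the ligands Il22, Il19, Il20 and Il24, the receptor chains Il22ra1, Il20ra, Il20rb and Il10rb, and Il22ra2, which encodes a soluble binding protein that holds IL-22 away from its receptor. They were taken by gene symbol from the deposited expression tables, and all 9 were found among the 19439 genes listed in at least 1 library. The libraries came from skin lesions on the ears of 8-week-old BALB/c mice treated with imiquimod, an agonist of Toll-like receptor 7 that gives psoriasis-like inflammation in mouse skin. Every mouse received imiquimod, and no untreated skin is among the samples analysed here. In addition, each ear was injected intradermally with 10 µl of normal saline (the vehicle groups, whose titles name only imiquimod) or with 10 µl of lysophosphatidylcholine (LPC) at 10 mM, a phospholipid with a single fatty acid chain, daily for a planned 6 days. Mice of either treatment were taken on day 4 or day 7 by the titles, which makes 4 groups of 4 mice, and each mouse gave 1 library.

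The IL-20 subfamily belongs to the IL-10 family of cytokines. IL-22 is made mainly by T cells and innate lymphoid cells and binds a receptor made of IL-22RA1 and IL-10RB, while IL-19, IL-20 and IL-24, which keratinocytes and myeloid cells make, bind IL-20RA paired with IL-20RB. IL-20 and IL-24 also bind IL-22RA1 paired with IL-20RB. In skin these receptors sit on keratinocytes, signal mainly through STAT3, raise antimicrobial proteins and stress keratins, and lower genes of terminal differentiation; IL-22 is needed for much of the epidermal thickening that imiquimod gives.

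In the mouse genome build GRCm38, Il24 (chromosome 1, 130882074 to 130887411), Il20 (130906985 to 130911296) and Il19 (130932656 to 130945457) lie within 63.4 kb of each other. Il22ra2 (chromosome 10, 19622028 to 19634681) lies 77.0 kb from Il20ra (19711673 to 19760053). Il22 (118204584 to 118210047) is on the same chromosome, 79.6 kb from Iltifb, a near-identical second copy of the gene. The other receptor genes stand alone: Il22ra1 on chromosome 4 (135728159 to 135755383), Il20rb on chromosome 9 (100457719 to 100486473) and Il10rb on chromosome 16 (91406157 to 91425834). RefSeq promoter windows for GRCm38.p6 were found for 6 of the 9 genes. Those of Il19 and Il20ra are shown as a ligand and a receptor chain of the same receptor system: Il20ra fell between the LPC groups, and Il19 was higher at LPC day 7 without passing the test. The stretches printed are upstream of a RefSeq transcript start, inside the annotated gene span but outside annotated exons: 250 bases for Il19 (chr1:130940116-130940365, minus strand) and 233 bases for Il20ra (chr10:19712337-19712569, plus strand). Capitals mark matches to STAT (TTCNNNGAA) and NF-kB (GGG, 5 free bases, CC) motifs in Il19 and to an AP-1 motif (TGANTCA) in Il20ra, read on both strands.
Il19: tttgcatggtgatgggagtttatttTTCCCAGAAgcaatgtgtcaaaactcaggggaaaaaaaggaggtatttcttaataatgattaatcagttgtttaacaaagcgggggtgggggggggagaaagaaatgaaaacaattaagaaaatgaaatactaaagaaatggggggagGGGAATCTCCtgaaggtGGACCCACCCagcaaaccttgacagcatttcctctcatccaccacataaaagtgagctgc
Il20ra: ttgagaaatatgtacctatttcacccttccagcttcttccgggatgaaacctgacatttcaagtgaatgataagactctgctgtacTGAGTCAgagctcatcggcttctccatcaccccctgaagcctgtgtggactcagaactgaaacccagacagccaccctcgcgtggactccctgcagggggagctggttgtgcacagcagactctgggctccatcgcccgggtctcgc
The STAT match of Il19 spans bases -225 to -217 from the start, and its NF-kB matches span -77 to -68 and -60 to -51. The AP-1 match of Il20ra spans -164 to -158. Among 32851 windows of 250 bases, 7.02% held the STAT letters, 6.75% the AP-1 letters and 45.8% the much looser NF-kB letters. These matches describe the sequence and say nothing about binding.

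Expected counts summed to between 18704197 and 20131513 per library. The tissue label was checked against its markers: Krt5 and Krt14, the keratins of basal keratinocytes, lay at or above 1393 and 4153 FPKM (fragments per transcript length and sequencing depth) in all 16 libraries. Among the cell type markers matched to a listed gene, none was without a count in any group. Markers that matched no listed gene were not part of this check, and 10 T cell markers were matched. Libraries differed in tissue content. Summed skeletal muscle marker counts scaled to library size (CPM) ranged from 590.3 to 4749 at LPC day 4 and from 5151 to 51127 at vehicle day 4. At LPC day 7, mice 1 and 3 had 1729 and 769.2, and mice 2 and 4 had 20866 and 28079. In bulk skin, fewer cells of a type and less RNA per cell cannot be told apart, for every gene below. Log2 fold changes are given with their standard error, and a gene was called when its adjusted p from edgeR's quasi-likelihood test, corrected by Benjamini-Hochberg over 15782 genes, was below 0.05. Of the 9 genes, 8 were in that test, because Il20 did not pass the filter on low counts.

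Per transcript length, Il20rb was the highest of the 9 genes in 12 of the 12 libraries outside LPC day 7. Its mean was 31.2 ± 11.9 FPKM (SD, n = 4) at vehicle day 4, 25.2 ± 8.71 at LPC day 4 and 31.2 ± 10.8 at vehicle day 7, and in each of these groups its range lay above that of the next gene, Il10rb, without overlap. Il10rb, the chain shared with the IL-10 and interferon lambda receptors, came next with 15.1 ± 1.85, 13.5 ± 1.44 and 16.8 ± 0.947 FPKM (SD, n = 4). The order below them was mostly not resolved, since the ranges of neighbouring genes overlapped. An exception was Il22ra2 at LPC day 4, whose lowest library (2.31 FPKM) lay above the highest of Il20 (0.11). Il22 and Il20 were the lowest of the 9 genes in these 3 groups, with means of at most 0.935 FPKM.

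At LPC day 7 the order differed. Il19 had the highest mean, 40.9 ± 29.5 FPKM (SD, n = 4), followed by Il24 with 26.7 ± 24.1, Il10rb with 21.3 ± 5.71 and Il20rb with 12.7 ± 3.65, and the ranges of each neighbouring pair among them overlapped. The highest member was Il19 in mice 1, 3 and 4 and Il10rb in mouse 2. The ligands together summed to 120.6 FPKM in mouse 1 and 112.2 in mouse 3, to 13.8 in mouse 2 and to 33.2 in mouse 4, against 0.57 to 31.8 over the 4 vehicle libraries of day 4 and 1.01 to 19.1 over those of day 7.

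**Figure D1:**
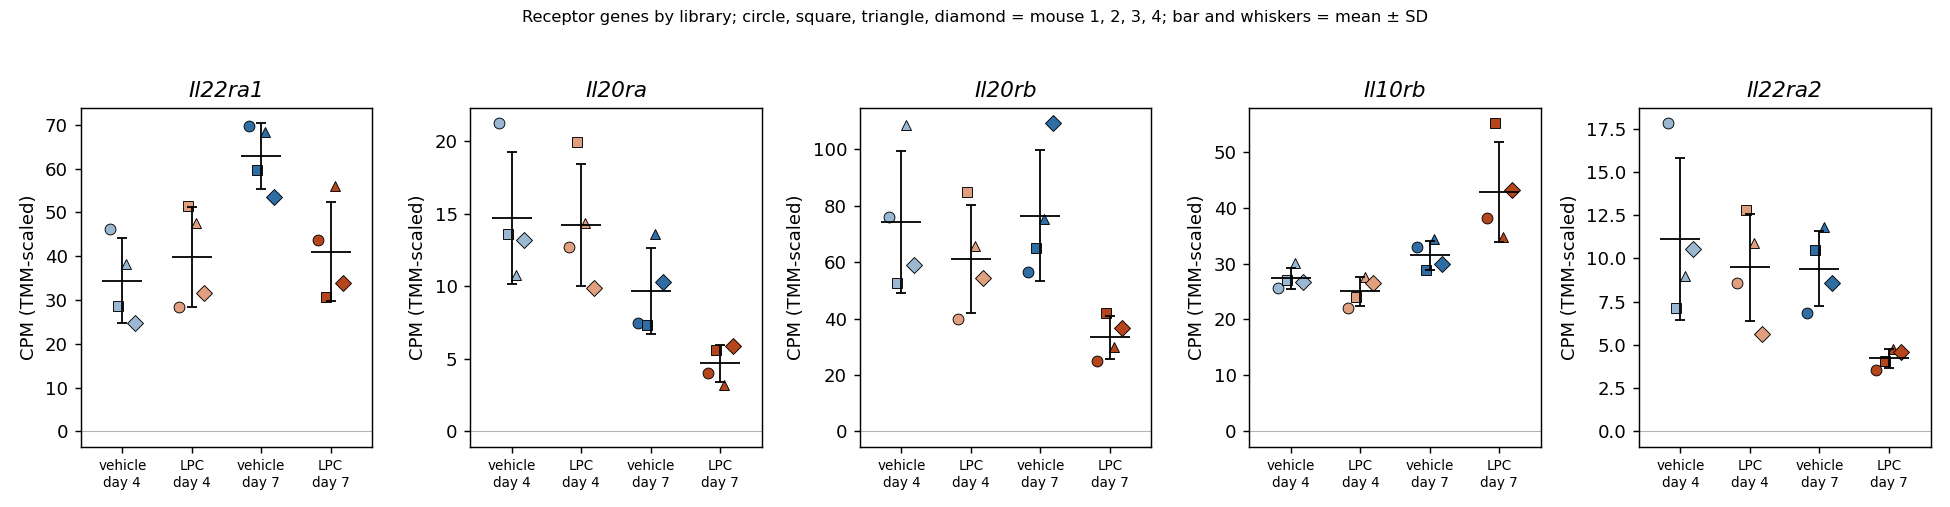
Receptor and binding protein genes in every library, as TMM-scaled CPM on a linear axis, with the group mean and SD (n = 4 mice). Il20rb, Il20ra and Il22ra2 were lower at LPC day 7 than in each vehicle library of day 7, and Il10rb was higher.

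The first comparison asked how LPC altered these genes at day 7. The IL-20 receptor chain Il20rb and the IL-22 binding protein Il22ra2 fell, and the other chain of the IL-20 receptor, Il20ra, was lower in every LPC library without passing the test. The ligands Il24 and Il19 were higher on average but differed widely between mice. Of the 8 genes tested, 0 were called higher and 2 lower, beside 3.83% of all genes tested (2.38% higher and 1.44% lower). The median log2 fold change was -0.09 for the 8 genes and 0.02 for all genes. DESeq2, which called 9.18% of all genes here, called 5 of the 8: it added Il24 and Il10rb as higher and Il20ra as lower.

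Il20rb, which both IL-20 receptor types need, measured 22.05, 26.55, 29.50 and 46.83 FPKM in vehicle mice 1 to 4 and 8.30, 16.86, 11.43 and 14.03 FPKM in LPC mice 1 to 4. The groups did not overlap, and the fall was 2.29-fold (log2 fold change -1.20 ± 0.28, adjusted p = 0.032). The vehicle library with the highest Il20rb, mouse 4, had only 0.20 FPKM of Il19. Without it the difference was -0.98 with an adjusted p of 0.11. The call was also lost without vehicle mouse 2 (adjusted p = 0.060), vehicle mouse 3 (0.074), LPC mouse 1 (0.093) or LPC mouse 3 (0.069), with log2 fold changes between -1.27 and -1.08.

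Il22ra2 measured 2.68, 4.30, 4.64 and 3.68 FPKM in vehicle mice 1 to 4 and 1.19, 1.64, 1.83 and 1.76 FPKM with LPC. The highest LPC library lay below the lowest vehicle library, and the LPC libraries were close to each other. The fall was 2.22-fold (-1.15 ± 0.30, adjusted p = 0.048). This call sat at the threshold: leaving out any 1 of the 8 libraries other than vehicle mouse 1 ended it, with adjusted p between 0.065 and 0.12, while the log2 fold change over all 8 such fits stayed between -1.27 and -1.02.

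Il20ra, the partner chain of Il20rb, measured 3.48, 3.85, 6.24 and 5.58 FPKM with vehicle and 1.72, 3.00, 1.43 and 2.63 FPKM with LPC. Its groups did not overlap either, and its log2 difference was -1.04 ± 0.29 (adjusted p = 0.060). Il22ra1, the chain that brings IL-22 to keratinocytes, measured 11.49, 10.31, 11.29 and 9.68 FPKM with vehicle and 6.17, 5.21, 9.01 and 5.48 FPKM with LPC. Its FPKM ranges were separate but its CPM ranges overlapped, because mouse 3 had 56.0 CPM with LPC and mouse 4 had 53.6 with vehicle, and its log2 difference was -0.61 ± 0.24 (adjusted p = 0.17).

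Il10rb went the other way. It measured 16.96, 15.51, 17.79 and 16.94 FPKM with vehicle and 16.73, 29.18, 17.49 and 21.89 FPKM with LPC, a log2 difference of 0.44 ± 0.14 (adjusted p = 0.090). On the TMM-scaled CPM scale every LPC library was above every vehicle library (lowest 34.8 against highest 34.4), whereas in FPKM the groups overlapped. LPC mice 2 and 4, with the higher Il10rb, also had the higher summed macrophage marker CPM, 1776 and 1223 against 317.6 in mouse 1 and 292.5 in mouse 3. Their summed endothelial marker CPM was also higher, 895.7 and 670.6 against 272.9 and 303.4, and so was that of fibroblast markers, 16370 and 5521 against 3034 and 3245. The part of those markers in the Il10rb values was not tested. Over the whole comparison, CPM groups did not overlap for 3 members lower with LPC and 1 higher, while 5.16% and 5.7% of all genes did so in these directions.

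**Figure D2:**
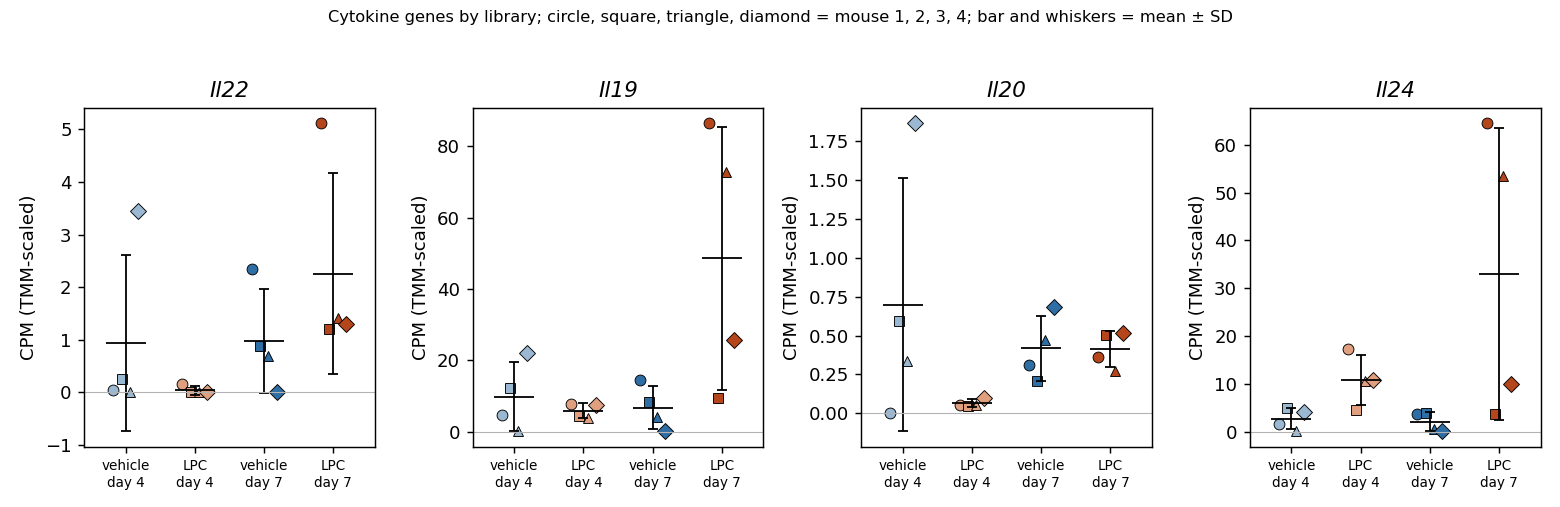
Cytokine genes in every library, as TMM-scaled CPM on a linear axis, with the group mean and SD (n = 4 mice). At LPC day 7 Il19 and Il24 were high in mice 1 and 3 and lower in mice 2 and 4, and Il22 had at most 0.16 CPM at LPC day 4.

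Among the ligands, Il24 measured 3.23, 3.67, 0.51 and 0.09 FPKM in vehicle mice 1 to 4 of day 7 and 48.89, 3.28, 46.12 and 8.70 FPKM in LPC mice 1 to 4. Mice 1 and 3 were far above every vehicle library, and mouse 2 lay within the vehicle range. The log2 difference was 3.99 ± 1.14, the largest among the 8 genes tested, with an adjusted p of 0.063. It passed the test without LPC mouse 2 (4.34, adjusted p = 0.041), and it was 1.74 (adjusted p = 0.37) when LPC mice 1 and 3 were both left out.

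Il19 measured 13.33, 7.95, 3.82 and 0.20 FPKM with vehicle and 67.26, 8.88, 64.50 and 22.81 FPKM with LPC, a log2 difference of 2.84 ± 1.08 (adjusted p = 0.15). Again mice 1 and 3 stood apart, and mouse 2 overlapped the vehicle range. Il22 measured 2.19, 0.83, 0.62 and 0.00 FPKM with vehicle and 4.10, 1.12, 1.29 and 1.21 FPKM with LPC, which overlapped (1.20 ± 1.19, adjusted p = 0.64). Il20 was near the floor of detection in both, with 33 counts over the vehicle libraries and 31 over the LPC libraries (exact two-sided permutation test on CPM, p = 0.97, n = 4 per group; 4 against 4 can give no p below 0.029).

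The libraries with most Il19 and Il24 also differed in other tissue markers. LPC mice 1 and 3 of day 7 had summed neutrophil marker CPM of 12412 and 13595, against 5907 and 4737 in mice 2 and 4. With LPC at day 7, 4 of 11 neutrophil markers rose, among them Ly6g (3.17 ± 0.78, adjusted p = 0.040). S100a8 and S100a9 are in this list and also in the list of keratinocyte genes raised by IL-22 or IL-20 cytokines, given below. The sums are therefore not a measure of neutrophils alone. At the low end, vehicle day 4 mouse 3 and vehicle day 7 mouse 4 had 0.15 and 0.20 FPKM of Il19, 0.05 and 0.09 FPKM of Il24, and the lowest summed neutrophil CPM of their groups, 161.7 and 308.9. Without these 2 libraries, 0 of the 8 genes were called at day 7 (Il20rb -0.98, adjusted p = 0.078; Il22ra2 -1.20, adjusted p = 0.10). Summed keratinocyte marker CPM was 47561 and 39387 in LPC mice 1 and 3 of day 7, against 26196 and 31243 in mice 2 and 4. It was 27402 in vehicle day 7 mouse 4, against 47441 to 57196 in mice 1 to 3 of that group. In vehicle day 4 mouse 3 it was 23635, not the lowest of its group (22320 to 27336). The part of neutrophil and keratinocyte content in the ligand and receptor values was not tested.

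Genes downstream of these receptors were described from lists. Of 23 keratinocyte genes known to be raised by IL-22 or IL-20 cytokines, 1 rose with LPC at day 7, the neutrophil-attracting chemokine Cxcl1 (3.44 ± 0.84, adjusted p = 0.039). Of all genes, 2.38% were called higher and 1.44% lower. The median log2 fold change was 1.04 against 0.02 for all genes. At an unadjusted p below 0.05, 8 of the 23 were higher and 0 lower, beside 11.3% and 8.47% of all genes. DESeq2 called 5 of the 23 higher and 0 lower, beside 9.18% of all genes in either direction. Lcn2, the antimicrobial lipocalin, was at 1.90 ± 0.51 (adjusted p = 0.052). Of 11 differentiation genes that IL-22 is known to lower, 5 fell, with a median of -1.65: Krt10 (-2.24 ± 0.42, adjusted p = 0.015) and Krt1, the keratins of suprabasal cells, Hrnr (-2.14 ± 0.42, adjusted p = 0.018), Lor (-2.26 ± 0.55, adjusted p = 0.037) and Flg, proteins of the cornified layer. Krt1 fell by 1.65 ± 0.43 and Flg by 2.62 ± 0.65; both were chosen for naming as called members of the list after their values were seen. Of 14 general keratinocyte markers, 3 fell, but Krt1 and Krt10 belong to that list too, so the 2 lists are not separate. The summed level of the 14 markers, with Krt1 and Krt10 included, was 26196 to 47561 CPM with LPC and 27402 to 57196 with vehicle. The part of keratinocyte content in these differences was not tested.

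Of 15 JAK-STAT genes, edgeR called 0 in either direction, with a median of 0.35. At an unadjusted p below 0.05, 8 were higher and 1 lower, beside 11.3% and 8.47% of all genes. DESeq2 called 2 higher and 1 lower, beside 9.18% of all genes in either direction. The nearest were the feedback inhibitors Socs3 (1.74 ± 0.48, adjusted p = 0.058) and Socs1 (1.55 ± 0.48, adjusted p = 0.086). Another list mixed type 17 cytokines, their regulators and inducers of the subfamily, without separating these roles. Of its 14 tested genes, 1 rose, Tgfb1 (0.95 ± 0.16, adjusted p = 0.012), which encodes a cytokine of wound repair and type 17 cell development. Il6 was at 4.38 ± 1.20 (adjusted p = 0.055) and Tnf at 1.89 ± 0.51 (adjusted p = 0.054). Among the 3 tested relatives that share IL-10RB or the IL-10 family, Ifnlr1, the interferon lambda receptor chain, fell by 0.89 ± 0.21 (adjusted p = 0.032), while Il10 was at 1.75 ± 0.48 (adjusted p = 0.054) and Il10ra at 0.98 ± 0.27 (adjusted p = 0.056). Of a mixed list of 8 EGF receptor ligands and other cytokine receptors, 3 rose. They were Il1rl1, the IL-33 receptor (2.66 ± 0.64, adjusted p = 0.036), and the EGF receptor ligands Hbegf (2.25 ± 0.59, adjusted p = 0.047) and Areg (3.49 ± 0.93, adjusted p = 0.049).

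**Figure D3:**
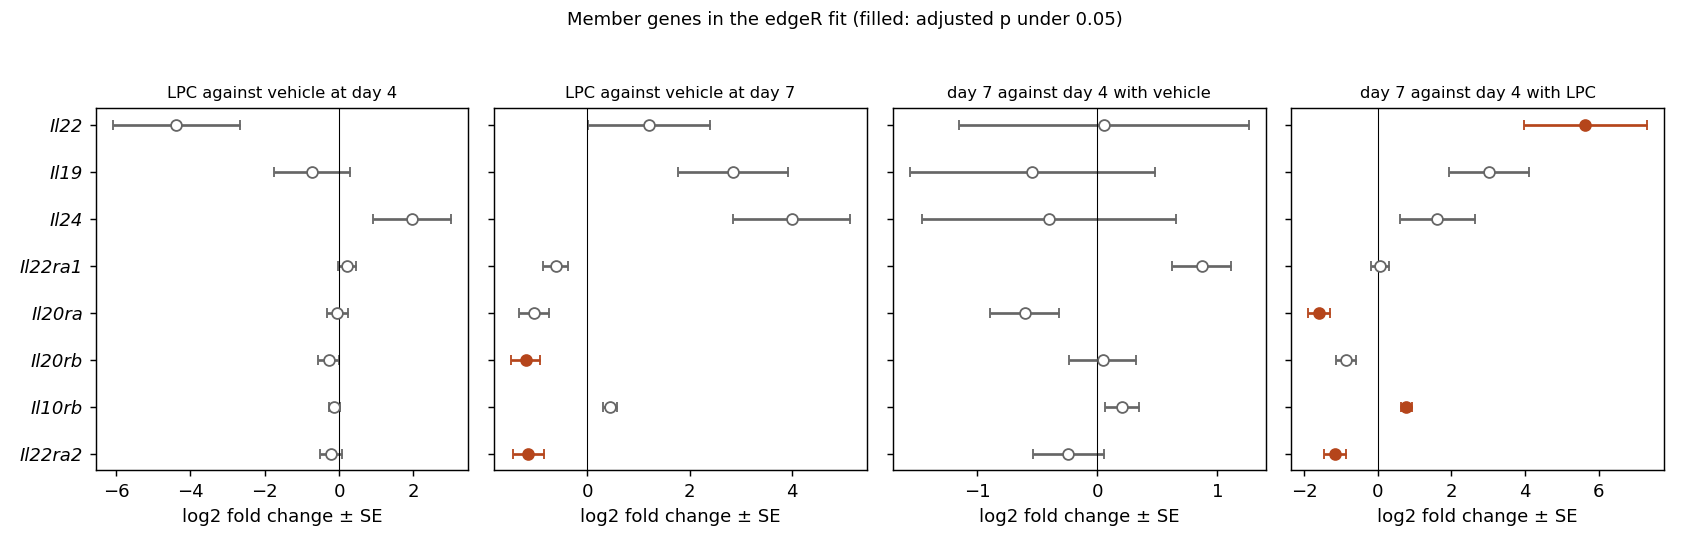
Log2 fold change with its standard error for the 8 genes in the edgeR test, in 4 comparisons with separate horizontal scales. Filled points passed an adjusted p of 0.05: Il20rb and Il22ra2 at day 7, and Il22, Il20ra, Il10rb and Il22ra2 between the LPC groups.

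At day 4, LPC was compared with vehicle in the same way. The edgeR test called 0 of the 8 genes, beside 0.139% of all genes. An unadjusted p below 0.05 was found for 1 of the 8, Il22, and for 19.2% of all genes. DESeq2 called 0 of the 8, against 7% of all genes. The receptor genes Il22ra1, Il20ra, Il20rb, Il10rb and Il22ra2 had log2 differences between -0.28 and 0.21. The CPM ranges of all 9 genes overlapped (7.42% of all genes were higher and 8.67% lower without overlap). Summed keratinocyte marker CPM did not overlap, at 30437 to 34933 with LPC and 22320 to 27336 with vehicle. Its part in the values of this day was not tested. Il24 measured 1.5, 4.61, 0.05 and 4.06 FPKM in vehicle mice 1 to 4 and 15.41, 4.32, 9.60 and 9.91 FPKM with LPC. In 3 of 4 LPC libraries it was above every vehicle library, with a log2 difference of 1.97 ± 1.06 (adjusted p = 0.33). Il19 did not share this difference: it measured 4.36, 11.61, 0.15 and 22.16 FPKM with vehicle and 7.33, 4.53, 3.58 and 7.22 FPKM with LPC (-0.73 ± 1.02, adjusted p = 0.73).

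**Figure D4:**
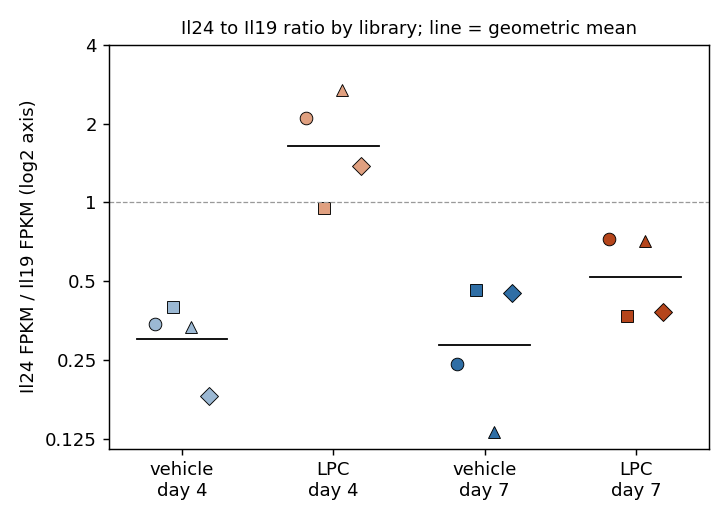
Ratio of Il24 to Il19 FPKM in each library on a log2 axis; the dashed line marks equal levels and short lines the geometric means of 4 mice. The 4 LPC day 4 libraries, from 0.954 to 2.68, lay above the other 12, from 0.134 to 0.727.

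The balance of these neighbouring ligand genes was therefore compared within each library. This measure was chosen because of the values just given, so it is a description and no test is given for it. The ratio of Il24 to Il19 FPKM was 0.344, 0.397, 0.333 and 0.183 in vehicle mice 1 to 4 of day 4 and 2.10, 0.954, 2.68 and 1.37 in LPC mice 1 to 4. Il24 exceeded Il19 in 3 of the 4 LPC day 4 libraries and in 0 of the other 12. The mean log2 ratio was 0.72 ± 0.66 (SD, n = 4) with LPC and -1.73 ± 0.49 with vehicle, a 5.45-fold difference in the ratio. In 2 of the 12 the ratio cannot be read: Il19 and Il24 had 3 and 1 counts in vehicle day 4 mouse 3, and 4 and 2 counts in vehicle day 7 mouse 4.

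By day 7 the ratio with LPC was 0.727, 0.369, 0.715 and 0.381 in mice 1 to 4, against 0.242, 0.462, 0.134 and 0.45 with vehicle, which overlapped (log2 difference 0.86). Between the LPC groups the log2 ratio differed by -1.66 (day 7 minus day 4), and between the vehicle groups the difference was -0.08. Leaving out any 1 library gave log2 differences from 2.21 to 2.71 at day 4. The comparisons share groups with each other and are not independent.

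Il22 itself was nearly absent at LPC day 4. Vehicle mice 1 to 4 had 0.06, 0.24, 0.00 and 3.44 FPKM, and LPC mice 0.15, 0.00, 0.00 and 0.00 FPKM. The vehicle level rested on mouse 4, and the log2 difference of -4.39 ± 1.71 had an adjusted p of 0.18. A library at 0 could still hold up to 3 counts, or 0.147 to 0.156 CPM in LPC mice 2 to 4, a limit that covers counting error only. Il20 was at 0.06, 0.06, 0.06 and 0.11 FPKM with LPC and at 0.00, 0.59, 0.37 and 2.11 FPKM with vehicle (exact permutation test, p = 0.14, n = 4 per group). Summed T cell marker CPM was 14.2 to 18.0 with LPC and 18.4 to 25.4 with vehicle, and 0 of 10 such markers were called (0 at an unadjusted p below 0.05 and 0 by DESeq2). Their part in the Il22 values was not tested.

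Between day 4 and day 7 with LPC, 4 of the 8 genes were called, 2 higher and 2 lower, beside 11% of all genes (6.87% higher and 4.13% lower). Il22 and Il10rb rose, and Il20ra and Il22ra2 fell. DESeq2, which called 19.5% of all genes here, called 6, adding Il19 as higher and Il20rb as lower. With the skeletal muscle score as covariate, Il22 (5.60, adjusted p = 0.070) and Il22ra2 (-1.15, adjusted p = 0.063) missed the threshold at almost the same log2 fold change. The 4 LPC day 7 libraries are the same as in the comparison with vehicle above, so the falls are not independent of it.

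Il22 went from 0.15, 0.00, 0.00 and 0.00 FPKM at day 4 to 4.10, 1.12, 1.29 and 1.21 FPKM at day 7, with no overlap. In counts, 3 were found over the day 4 libraries and 160 over those of day 7, a ratio of 56.1 per library size (18.9 to 275, exact 95% Clopper-Pearson limits, which cover counting error alone). The fitted log2 fold change was 5.64 ± 1.68 (adjusted p = 0.044), a size that depends on how the 0 counts are treated. The call was lost on leaving out any 1 of the 8 libraries other than LPC day 7 mouse 3, with adjusted p from 0.060 to 0.12 and log2 fold changes from 4.86 to 8.46. Iltifb, the second copy, received 3.75% of the counts of the pair, and summing both left the number of members called at 4.

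Il10rb went from 11.45, 13.57, 14.71 and 14.23 FPKM to 16.73, 29.18, 17.49 and 21.89 FPKM, again without overlap, a rise of 1.71-fold (0.78 ± 0.14, adjusted p = 0.0069). Il20ra went from 6.77, 10.36, 6.93 and 5.26 FPKM to 1.72, 3.00, 1.43 and 2.63 FPKM, a fall of 3.03-fold (-1.60 ± 0.30, adjusted p = 0.0076). These 2 calls were kept in all 19 alternatives run, with Il10rb between 0.60 and 0.96 and Il20ra between -1.90 and -1.31. They were the only members of the 8 with a call kept throughout in any comparison.

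Il22ra2 went from 3.42, 5.52, 4.41 and 2.31 FPKM to 1.19, 1.64, 1.83 and 1.76 FPKM (-1.16 ± 0.30, adjusted p = 0.028). Day 7 lay below day 4 in every library, but the call was lost without LPC day 4 mouse 1 (adjusted p = 0.050), mouse 2 (0.089) or mouse 3 (0.078), or without LPC day 7 mouse 2 (0.066). Il20rb went from 15.74, 36.47, 26.45 and 22.12 FPKM to 8.30, 16.86, 11.43 and 14.03 FPKM, overlapping through day 4 mouse 1 (-0.87 ± 0.28, adjusted p = 0.057). It passed the test when that mouse was left out (-1.03, adjusted p = 0.049).

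Il19 lay above its day 4 range in all 4 day 7 libraries without passing the test (3.03 ± 1.09, adjusted p = 0.079), and Il24 overlapped (1.62 ± 1.02, adjusted p = 0.30). Il20 had 31 counts at day 7 and 5 at day 4, with separate ranges (exact permutation test, p = 0.029, adjusted 0.11 over 4 comparisons, n = 4 per group). Il22ra1 had a log2 difference of 0.05 ± 0.24 (adjusted p = 0.91), with overlapping ranges. In all, CPM ranges did not overlap for 4 members higher and 2 lower at day 7, while 8.85% and 8.22% of all genes did so in these directions.

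The list of inducers and accompanying cytokines was compared between the LPC groups as well. Of 14 tested, 4 rose and 1 fell: Tgfb1 (0.66 ± 0.16, adjusted p = 0.020) and Il17f (4.17 ± 1.21, adjusted p = 0.041) are examples of the rise, with Il17a at 5.47 ± 1.63 (adjusted p = 0.045) and Il17c at 2.04 ± 0.61 (adjusted p = 0.046). Ahr, the aryl hydrocarbon receptor that supports Il22 transcription, fell by 0.69 ± 0.20 (adjusted p = 0.044). Il17a and Il17c were named because they complete the called genes of the list. Of the 23 keratinocyte target genes, 4 rose, among them Saa3 (3.49 ± 0.74, adjusted p = 0.013), an acute-phase protein, Il1f6 (1.28 ± 0.35, adjusted p = 0.033), which encodes IL-36 alpha, and Krt6a (2.25 ± 0.61, adjusted p = 0.033), a stress keratin. At an unadjusted p below 0.05, 15 of the 23 were higher and 1 lower, beside 17.9% and 12.9% of all genes. DESeq2 called 12 higher and 1 lower, beside 19.5% of all genes in either direction. Of the 11 differentiation genes, 3 fell (Krt10, Lor and Hrnr), with a median of -0.02 for the list. Il10ra, partner of Il10rb in the IL-10 receptor, rose (1.79 ± 0.28, adjusted p = 0.0037) and Ifnlr1 fell by 1.08 ± 0.21 (adjusted p = 0.0093). Markers of other cell types rose too, 5 of 12 for macrophages, 5 of 9 for endothelium and 2 of 10 for fibroblasts, beside 6.87% of all genes. Skeletal muscle markers were not called by edgeR, but 22 of 25 were higher at an unadjusted p below 0.05, and 14 by DESeq2. Of 15 adipocyte markers, 7 were higher and 1 lower by either of these 2 measures. The part of all these markers in the Il10rb and Il10ra values was not tested.

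Under vehicle, the change from day 4 to day 7 was not called for any of the 8 genes, nor for any gene in the test (0% called, against 13% with an unadjusted p below 0.05). Among the 8, 1 had an unadjusted p below 0.05, and DESeq2 called 0 of the 8 and 1.57% of all genes. That gene was Il22ra1, which went from 7.61, 4.90, 7.15 and 4.47 FPKM at day 4 to 11.49, 10.31, 11.29 and 9.68 FPKM at day 7, with separate ranges (0.87 ± 0.24, adjusted p = 0.21; 3.45% of all genes were higher and 2.76% lower without overlap). Its log2 difference between the days stayed between 0.69 and 1.04 in 18 alternatives, with adjusted p from 0.063 to 0.63. Il20ra, at -0.60 ± 0.29 (adjusted p = 0.39), was the next.

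Whether the effect of LPC differed with the day was tested as an interaction, in which 0 of the 8 genes were called (0% of all genes called, 16.9% with an unadjusted p below 0.05). Of the 8, 7 had an unadjusted p below 0.05, and DESeq2 called 0 of the 8 and 3.86% of all genes, so the day 7 calls are not shown to differ from day 4. The interaction was 0.57 ± 0.20 for Il10rb (adjusted p = 0.19), -0.99 ± 0.41 for Il20ra (adjusted p = 0.24), -0.92 ± 0.39 for Il20rb (adjusted p = 0.26), -0.92 ± 0.42 for Il22ra2 (adjusted p = 0.29) and -0.82 ± 0.34 for Il22ra1 (adjusted p = 0.24). Among the ligands it was 5.59 ± 2.10 for Il22 (adjusted p = 0.21), 3.57 ± 1.47 for Il19 (adjusted p = 0.24) and 2.02 ± 1.47 for Il24 (adjusted p = 0.50).

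**Figure D5:**
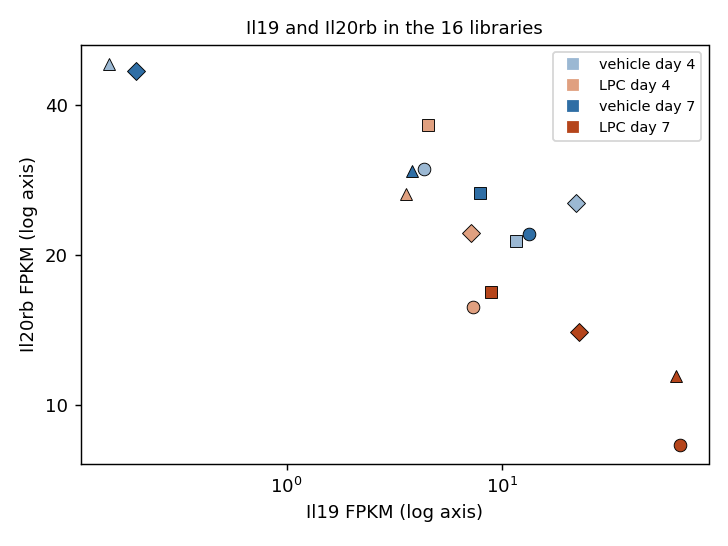
Il20rb against Il19 in the 16 libraries, both in FPKM on log axes; circle, square, triangle and diamond mark mouse 1, 2, 3 and 4. Libraries ran from 48.33 FPKM of Il20rb with 0.15 of Il19 to 8.30 with 67.26.

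Across the 16 libraries, Il20rb was lowest where Il19 and Il24 were highest. The Pearson correlation of log2 CPM was 0.88 between Il19 and Il24, -0.89 between Il19 and Il20rb and -0.88 between Il24 and Il20rb. These values describe points that share treatment, day and tissue content, including the vehicle libraries with very little Il19. Il20ra varied with Il22ra2, its neighbour on chromosome 10 (0.86), and less with its partner chain Il20rb (0.71). Il22ra1 and Il19 were close to unrelated (-0.12).

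The genes whose pattern was most like each member were taken as the 3 with the highest correlation over the 16 libraries among all genes tested. For Il22 these were Il17f (0.94), Uox (0.93) and Sprr2b (0.91), and for Il19 Sprr2f (0.97), Stom (0.95) and Sod2 (0.94). Il24 lay closest to Areg (0.95), Stat3 (0.94) and Elf3 (0.94). The receptor chains had other neighbours: Osbpl1a, Myo6 and Serpinb8 for Il20rb (all 0.96), Scin and Slc1a4 (both 0.92) and Spock2 (0.90) for Il20ra, and Cd5 (0.92), Plekhg6 (0.89) and Il1f8 (0.88) for Il22ra1. Il10rb lay closest to Nfam1, Sirpa (both 0.95) and Cyba (0.94), and Il22ra2 to Acpp (0.90), Zfp672 (0.89) and Gm21319 (0.88). No member was among the 3 genes most like another.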

How the data were processed

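Ear skin RNA of 16 mice was sequenced, 1 library each, and grouped by the sample titles, which give days 4 and 7 where the names of the deposited tables give days 3 and 6. Per the labels' protocols, the authors extracted RNA with TRIpure, sequenced on BGISEQ-500, aligned to GRCm38 with Bowtie2 and quantified with RSEM; neither versions nor the strand setting is stated in those sources. The deposited tables list per gene an RSEM expected count, in which reads matching several genes are shared out, and an FPKM value as made by the authors. They also list a transcript length, used here for no test. A gene missing from a table was taken as 0.

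Expected counts were rounded and tested with edgeR 4.0.16 (R 4.3.3): filterByExpr by group (15782 genes kept, 3657 removed), TMM, and 1 quasi-likelihood fit with a mean per group (12 residual degrees of freedom, biological coefficient of variation 35.0%). The test was checked on simulated data with the same spread for all genes. There it called 18% to 28% of 2-fold changes and 96% to 100% of 4-fold changes, depending on the comparison. Only genes with a mean above 2 CPM were changed, and Il22 lay below that (average log2 CPM 0.19). These shares do not apply to the ligands, which varied more. With LPC at day 7, Il24 at 15.8-fold (standard error 1.14) and Il19 at 7.17-fold (1.08) were not called. DESeq2 1.42.0 and limma 3.58.1 on log2(FPKM + 0.1) and log2(FPKM + 1) served as alternatives, as did other scalings, filters and sets of libraries. Leaving out pairs of libraries, summing Il22 with Iltifb and the Il24 to Il19 ratio were added after seeing the data. Il20 was compared by exact permutation tests. CPM correlations used a prior count of 2. The members and 17 gene lists (224 of 229 genes matched) were chosen with earlier results of these data known. Named genes are all members, up to 3 of smallest p per list and comparison, and the 3 most correlated per member; others are named as exceptions.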

Additional observations from a re-analysis of the deposited data

Results flagged for a closer look

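In each group of 4 mice, the library farthest from the rest was compared with the group's range by Dixon's ratio. This was done for 36 groups of 9 genes. For normally distributed values chance alone marks about 1 in 20 groups, a rate that need not hold for counts near 0. Where 3 libraries have 0, any count in the other library is marked. Il22 gave 3 of the 4 marked values: 3.44 CPM in vehicle day 4 mouse 4, 0.16 CPM in LPC day 4 mouse 1, where the others had 0, and 5.12 CPM in LPC day 7 mouse 1, where the others had 1.20 to 1.41. The remaining one was Il20 in LPC day 4 mouse 4, at 0.102 CPM from 2 counts. The values for LPC day 4 rest on 3 and 2 counts, at or under the limit that a count of 0 allows.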

How the results depend on the processing

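Of the counts of called members, those at day 4, under vehicle and for the interaction stayed at 0 in every alternative, except that 2 (Il10rb 0.78 and Il22ra1 -1.16) were called in the interaction without LPC day 7 mice 1 and 3. At day 7, LPC against vehicle gave 2 called members; it gave 1 with median-of-ratios size factors, with no low-count filter, with log2(FPKM + 1), and without LPC day 7 mice 1 and 3 (then Il10rb), 3 with log2(FPKM + 0.1) (Il20ra added), 4 with a skeletal muscle score as covariate, 5 with DESeq2, and 0 with the compared groups alone or without vehicle day 4 mouse 3 and vehicle day 7 mouse 4. Between the LPC days the 4 called members became 2 with the muscle covariate or without LPC day 7 mice 1 and 3, 3 with log2(FPKM + 1), 5 with the compared groups alone (Il19 added), and 6 with DESeq2 or without the 2 vehicle libraries (Il19 and Il20rb added). Leaving out 1 library gave 0 to 2 called members at day 7 and 2 to 4 between the LPC days. For all genes, the day 7 count of 604 became 1448 with DESeq2, 45 with the compared groups alone and 1175 with the muscle covariate, and the day 4 count of 22 became 1104, 1333 and 0; between the LPC days 1736 became 3073, 1100 and 862. The cause was not tested. 

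No clear pairing of libraries by mouse number was seen, though 4 mice per group cannot exclude it. Correlations of same-numbered deviations ran from 0.0994 to 0.539 at day 4 and from -0.596 to 0.148 at day 7. A number was closest to its own in 2 and 0 of 4 cases. With a replicate block, 1 member was called at day 7 and 2 between the LPC days, and 351 and 901 of all genes.

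Signs turned, with no call on either side, for Il19 at day 4 with log2(FPKM + 0.1) (0.42), for Il22ra1 (-0.36), Il20ra (0.51) and Il10rb (0.031) at day 4 with the muscle covariate, for Il22ra1 between the LPC days with log2(FPKM + 0.1) (-0.073), log2(FPKM + 1) (-0.066) and without LPC day 7 mice 1 and 3 (-0.31), and for Il24 without those mice between the LPC days (-0.65) and in the interaction (-0.24). Leaving out 1 library turned uncalled differences whose ranges were, at day 4, -1.16 to 0.053 for Il19, -0.25 to 0.18 for Il20ra and -0.41 to 0.092 for Il22ra2; under vehicle, -0.85 to 3.20 for Il22, -1.22 to 0.24 for Il19, -0.93 to 0.070 for Il24, -0.18 to 0.28 for Il20rb and -0.40 to 0.080 for Il22ra2; and between the LPC days -0.14 to 0.20 for Il22ra1. For Il20 the CPM difference ran from -0.869 to -0.246 at day 4 (smallest exact permutation p = 0.029), -0.0771 to 0.0824 at day 7 and -0.513 to 0.109 under vehicle. The log2 Il24 to Il19 ratio ran from -0.32 to 0.29 under vehicle and from -1.93 to -1.43 between the LPC days.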
